A study of Mus musculus with 19 samples.

Results

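CD4+ T cell receptors of the infarcted mouse heart were set against those of the mediastinal lymph node that drains it. The libraries were taken by their labels alone: 3 heart libraries and 3 mediastinal node libraries after myocardial infarction (MI), 6 of the 19 libraries in the series. A T cell carries a receptor of an alpha and a beta chain. The beta chain gene is assembled in the thymus by joining a TRBV, a TRBD and a TRBJ segment, with bases lost and added at the joints, and the joint encodes the CDR3, the loop that lies over the peptide presented by the MHC molecule. Daughter cells inherit the joint, so a CDR3 found at many copies in a tissue, or in a tissue and its lymph node, is used as a tag for T cells of shared descent, although some short CDR3s arise independently in many animals.

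All mice were wild-type Balb/c. Infarction was made by tying off the left anterior descending coronary artery, and the cells were taken at day 7. Each heart library came from 5000 sorted CD4+ TCRβ+ cells of the enzyme-digested, perfused heart and each MI node library from 500000 sorted cells. Mediastinal nodes of mice that had the chest opened without ligation (sham, n = 4) served as the surgical background, and axillary nodes of mice injected with adjuvant alone (n = 4), porcine cardiac myosin in adjuvant (n = 2) or mouse heart extract in adjuvant (n = 3) are given as further reference values. The labels do not say whether a library came from 1 animal, or whether a heart and a node with the same number came from the same mouse, and every p-value below measures only how far these libraries spread, which may be technical. Only beta chain transcripts were amplified, and markers of CD4+ or other cells could not be checked. The assay reads RNA, so more cells of a clone and more beta chain RNA per cell cannot be told apart.

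The hearts held 2426715, 4400003 and 5126910 reads, or 485, 880 and 1025 reads per sorted cell, and the MI nodes 7555217, 8472098 and 9154238 reads, or 15.1, 16.9 and 18.3 per cell. Because the hearts were read so much more deeply per cell, a CDR3 of a heart was counted as a clone from 1000 reads and a CDR3 of a node from 20 reads. Each clone was given the TRBV and TRBJ segment that held most of its reads. CDR3s are written as deposited, and so lack the conserved cysteine before and the phenylalanine after the printed letters.

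Reads of the infarcted hearts lay in a small number of receptors, and a part of these was listed in the draining node. Hearts 1, 2 and 3 held 313, 439 and 550 clones, which took 97.4%, 97.9% and 97.8% of their reads. Of these clones 38.7%, 42.6% and 39.3% were listed in the MI node of the same number, against 19.2% to 31.5% in the MI nodes of other numbers, and 39.0%, 35.3% and 34.7% were listed in none of the 16 nodes. Between hearts, 3 CDR3s were clones of 2 hearts and 0 of all 3. The following receptors carry these findings and are shown first. The leading pair of each heart shows the size of its largest clones, and the capital letters of every line are amino acids.

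Heart 1, most abundant, TRBV14 with TRBJ1-1: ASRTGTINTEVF
Heart 1, next, TRBV19 with TRBJ2-3: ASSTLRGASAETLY
Heart 2, most abundant, TRBV14 with TRBJ1-4: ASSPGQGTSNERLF
Heart 2, next, TRBV19 with TRBJ1-4: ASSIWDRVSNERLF
Heart 3, most abundant, TRBV14 with TRBJ1-1: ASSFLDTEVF
Heart 3, next, TRBV19 with TRBJ2-5: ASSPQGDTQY

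The next lines show heart clones that were among the 3 most abundant CDR3s of their own-number node, and the CDR3s that were clones of 2 hearts.

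Highest in MI node 3, a clone of heart 3, TRBV19 with TRBJ1-1: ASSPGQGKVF
Among the 3 highest in MI node 3, a clone of heart 3, TRBV19 with TRBJ1-5: ASKRTVNNQAPL
Among the 3 highest in MI node 1, a clone of hearts 1 and 2, TRBV16 with TRBJ2-7: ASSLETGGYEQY
A CDR3 of hearts 1 and 2, TRBV19 in heart 1 and TRBV5 in heart 2, TRBJ2-7 in both: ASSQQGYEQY
A clone of hearts 2 and 3, TRBV13-2 with TRBJ2-3: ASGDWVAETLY

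On a log10 scale, reads per CDR3 fell into separate classes in the hearts, with few CDR3s between them. Hearts listed 2898, 4153 and 4795 distinct CDR3s, but 2494, 3569 and 4084 of them had fewer than 100 reads and held together 0.991%, 0.830% and 0.815% of the reads. Only 39, 75 and 67 CDR3s had at least 100 and fewer than 300 reads. Of the CDR3s below 100 reads, 84.1%, 83.0% and 82.7% were 1 residue away from a clone of the same heart with the same segments. Whether they are copying errors of those clones was not tested, and they were left out of the clone counts. The MI nodes listed 200785, 230684 and 140864 distinct CDR3s, of which 87171, 98792 and 79907 had 20 or more reads. In the MI nodes 27131, 31186 and 21852 CDR3s had 2 or 3 reads, and 16953, 20167 and 6938 had 4 or 5. The next bin of equal log10 width held 27023, 31771 and 10630. That bin spans more read counts than the bin before it, so its higher count does not mark a separate class.

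**Figure D1:**
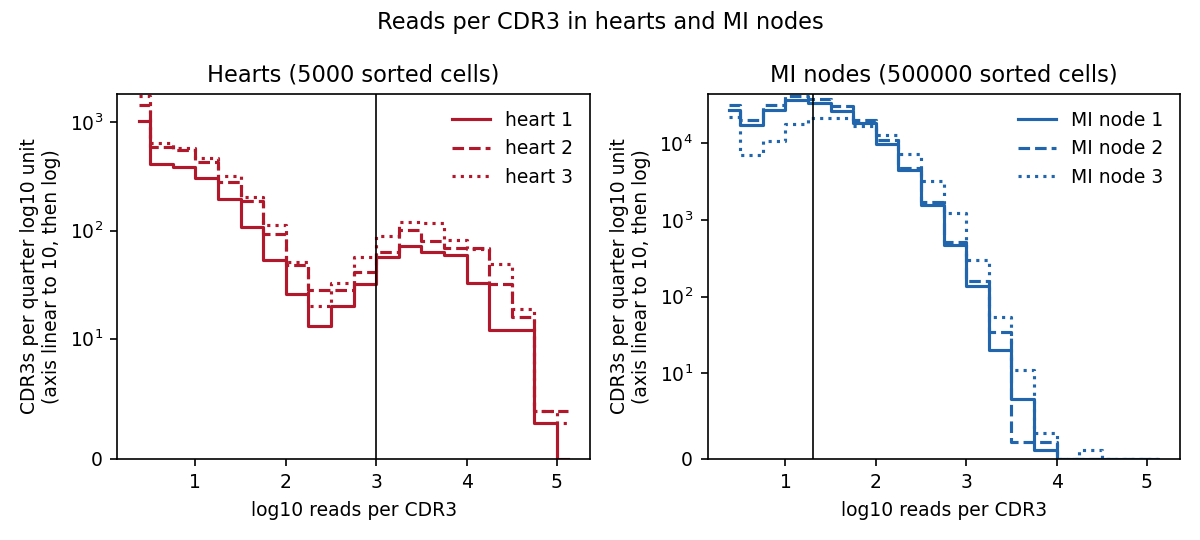
Number of CDR3s (vertical axis, linear up to 10 and logarithmic above) by log10 reads per CDR3 in equal bins, with one line per library for the 3 hearts (left) and 3 MI nodes (right); the black line marks the minimum for a clone, 1000 reads in hearts and 20 in nodes. Heart CDR3s form a low-read class and a class around and above 1000 reads with few CDR3s from 100 to below 300 reads. MI node CDR3s dip at 4 or 5 reads, to 6938 in node 3, but the bins span more read counts at higher reads, so this marks no separate class.

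Heart repertoires were far less even than those of the MI nodes. The effective number of CDR3s, the inverse Simpson index of read shares, was 122, 132 and 156 in the hearts and 35612, 40230 and 23805 in the MI nodes. The upper 50 percent of the reads, counted from the most abundant CDR3 down, lay in 46, 57 and 75 CDR3s of the hearts and in 19240, 22016 and 12797 CDR3s of the MI nodes. All 3 hearts stood apart from all 3 nodes in both measures, by 2.38 and 2.48 units of log10 (exact two-sided permutation p = 0.10 for each, the smallest that 20 splits of 3 against 3 allow; adjusted over 3 measures 0.10). Against all 7 mediastinal nodes, sham nodes included, the differences were 2.22 and 2.31 units lower in the hearts, with the smallest p that 120 splits allow (exact permutation p = 0.00833). The 5000 sorted cells of a heart can hold at most about 5000 CDR3s. Every mediastinal node exceeded that effective number, the lowest being 7419 in sham node 4. The upper 50 percent of reads lay in at least 3512 CDR3s of a mediastinal node, above 50 percent of 5000. Both separations were thus fixed by cell number, and their p-values test nothing beyond it.

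The libraries also differed in cell number, which was taken into account by calculation. If 5000 cells were drawn at the read shares of the MI nodes, the expected index would be 4385, 4447 and 4132, above the index of every heart. Draws of about 122, 132 and 157 cells at MI node shares would give the indices of the hearts. Draws of that size hold fewer CDR3s than the 313, 439 and 550 clones of these hearts, so they match the index only. How many receptor transcripts entered each heart library is not given in the sources used here, so large clones and few captured transcripts cannot be told apart. In 5000 reads drawn from each library, by formula, 405, 506 and 604 distinct CDR3s were expected in the hearts and 4711, 4740 and 4609 in the MI nodes.

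The largest heart clones held more of the reads than the largest node clones. The most abundant CDR3 held 2.81%, 3.30% and 3.35% of heart reads and 0.113%, 0.103% and 0.240% of MI node reads, a mean difference of 3.001 percentage points with no overlap between the groups (exact permutation p = 0.10, adjusted 0.10). Hearts held 20, 13 and 7 CDR3s at 1% or more of reads, and the MI nodes held 0. At 0.1% or more there were 216, 228 and 245 in the hearts and 1 in each MI node.

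The leading clones of the hearts used mainly the segments TRBV14 (Vβ13) and TRBV19 (Vβ6). Of the 10 most abundant clones of a heart, 9, 10 and 9 used one of these segments, and of the 50 most abundant 34, 37 and 36 did. In the MI nodes the same segments were used by 5, 7 and 8 of the 10 and by 28, 31 and 35 of the 50 most abundant CDR3s. Of the 100 most abundant, 49, 59 and 62 used them in the hearts and 64, 55 and 68 in the MI nodes. In both tissues a clone with TRBV14 or TRBV19 carried more reads than other clones, as given below. The part of reads per clone in this ranking was not tested. The exceptions among the leading heart clones were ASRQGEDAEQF of heart 1, with TRBV15 (Vβ12), and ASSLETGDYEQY of heart 3, with TRBV16 (Vβ11).

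The question behind a heart and its draining node is whether they hold the same T cells. Clones were matched by CDR3, TRBV and TRBJ. Of the clones of heart 1, 121 of 313 (38.7%, 95% Wilson interval 33.4% to 44.2%) were listed in MI node 1, beside 85 (27.2%) for node 2 and 60 (19.2%) for node 3. Of the clones of heart 2, 187 of 439 (42.6%, 38.1% to 47.3%) were listed in MI node 2, beside 130 (29.6%) for node 1 and 97 (22.1%) for node 3. Of the clones of heart 3, 216 of 550 (39.3%, 35.3% to 43.4%) were listed in MI node 3, beside 172 (31.3%) for node 1 and 173 (31.5%) for node 2. For each heart, the node of its own number listed the most of its clones.

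The mean was 40.2% ± 2.12 (SD, n = 3) for nodes of the same number and 26.8% ± 5.10 over the 6 other pairs, a difference of 13.4 percentage points. The observed numbering gave the largest difference of the 6 possible pairings of hearts with MI nodes (exact one-sided permutation p = 0.167, the smallest that 6 pairings allow), so no pairing could pass at 0.05. The difference kept its sign under each alternative tried. It was 10.03 points when only node CDR3s of 20 or more reads were counted, and 6.98 points when each node was limited to its 30000 most abundant CDR3s, which sets the nodes to an equal list length. Leaving out a heart or an MI node gave 10.8 to 16.1 points.

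**Figure D2:**
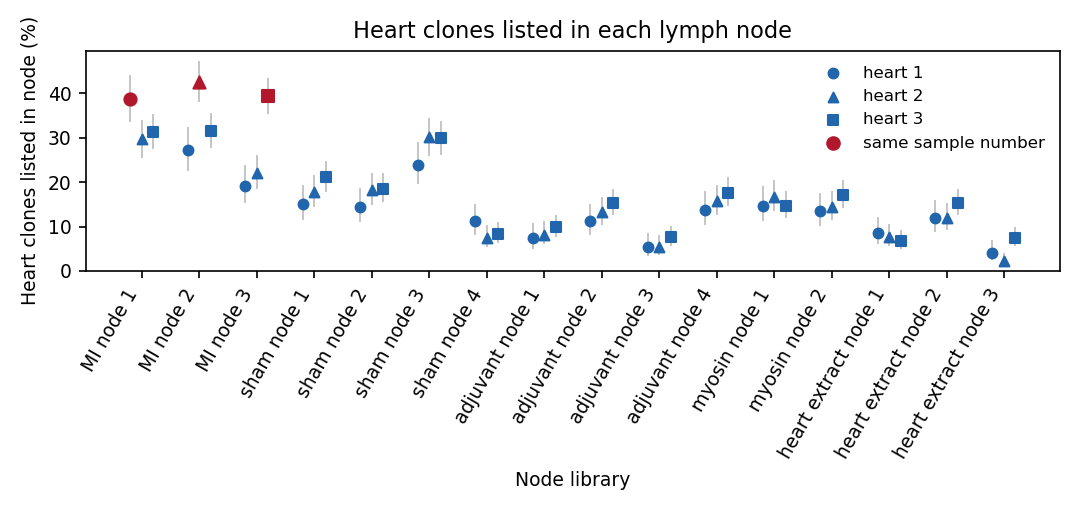
Percent of the clones of each heart (circle, triangle and square for hearts 1, 2 and 3) that were listed with the same CDR3, TRBV and TRBJ in each of 16 node libraries; grey bars are 95% Wilson intervals of the counting error, and red marks the MI node with the heart's own number. The 3 red points lie between 38.7% and 42.6%, and the highest other point is 31.5%.

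Sham nodes had a lower mean share of heart clones than MI nodes, but the groups of nodes overlapped. Averaged over the 3 hearts, MI nodes 1, 2 and 3 listed 33.2%, 33.7% and 26.8% of the heart clones. Sham nodes 1 to 4 listed 17.96%, 17.0%, 27.9% and 9.02%, so that sham node 3 stood above MI node 3. The difference of 13.3 points did not pass the exact two-sided permutation test over nodes (p = 0.0857, 35 splits), and the p ranged from 0.0571 to 0.267 over the alternatives tested. The MI means include the pair of the same number, which sham nodes do not have. Without it, in a comparison chosen after seeing the data, MI nodes listed 26.8% and sham nodes 17.99%, a difference of 8.80 points. By heart it was 7.03, 7.46 and 11.9 points (exact two-sided permutation p = 0.267, 0.40 and 0.20, 15 splits each). Sham node 3 also listed the most distinct CDR3s of the sham nodes, 212131 against 52869 to 109097 in the others, and sham node 4 the fewest. With 30000 CDR3s from each node the difference was 5.27 points (exact permutation p = 0.0571), and 2.95 points without the pair of the same number (exact permutation p of 0.133, 0.267 and 0.40 by heart). The 9 axillary nodes, from injected mice, listed 2.28% to 17.6% of the clones of a heart. Their lists were shorter than those of the MI nodes, at 38437 to 97629 distinct CDR3s. With 30000 CDR3s from each node they listed 2.05% to 10.9%, which overlapped the 6.15% to 15.5% of the sham nodes. Site and injection cannot be told apart in these nodes.

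Clones listed in many nodes were shorter than those listed in none. Of the heart clones, 39, 60 and 88 were in all 3 MI nodes, and their mean CDR3 length was 11.7, 11.8 and 11.5 residues. The 122, 155 and 191 clones listed in no node had mean lengths of 12.7, 12.4 and 12.4 residues. The order was the same in all 3 hearts. A further 37, 49 and 44 clones were listed in the MI node of their own number and in no other of the 16 nodes, and their mean lengths were 12.1, 12.6 and 12.0 residues. Short CDR3s with few added bases are known to recur between animals, and the tables give no nucleotide sequences to separate recurrence from descent.

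The largest heart clones were not all found in nodes. Of the 30 clones made up of the 10 most abundant of each heart, 14 were in the MI node of their own number, 18 in any MI node, 12 in a sham node and 10 in no node. Over all 1302 clones the counts were 524, 692, 506 and 468. By heart, 3, 5 and 6 of the leading 10 were in the node of the same number. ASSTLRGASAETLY, with 60282 reads in heart 1, had no listed read in any node.

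Several heart 3 clones were also among the most abundant CDR3s of MI node 3. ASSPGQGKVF, the most abundant CDR3 of MI node 3, had 21935 reads there (0.240%) and 16504 reads in heart 3 (0.322%), a share 1.34 times higher in the heart. It had 28 reads in MI node 1 and was not listed in MI node 2 or in a sham node. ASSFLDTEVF had 171644 reads in heart 3 (3.35%) and 7037 in MI node 3 (0.0769%), a share 43.6 times higher in the heart, and was listed in no other MI node and in no sham node. ASKRTVNNQAPL had 32556 reads in heart 3, 5898 in MI node 3, and was listed in no other node. The 3 most abundant CDR3s of MI node 3 were thus all clones of heart 3.

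In the other pairs the shared clones stood lower in the node. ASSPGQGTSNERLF, the leading clone of heart 2, had 145259 reads in the heart (3.30%) and 1086 in MI node 2 (0.0128%), and was listed in no other node. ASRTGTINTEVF, the leading clone of heart 1 with 68148 reads, had 242 reads in MI node 1, all with other segments, and 0 with its own. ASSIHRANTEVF (TRBV19 with TRBJ1-1) had 15988 reads in heart 1 and 3903 in MI node 1. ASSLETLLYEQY (TRBV16 with TRBJ2-7) had 3659 reads in heart 1 and 3877 in MI node 1, and was listed in no other node. Of the 3 most abundant CDR3s of MI node 1, 1 was a clone of heart 1, and of MI node 2, 0 were clones of heart 2.

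Every clone shared with the node of the same number held a larger share of the heart than of the node. The ratio of the shares ran from 2.94 to 21882 in heart 1 (median 380, 121 clones), from 4.62 to 53283 in heart 2 (median 268, 187 clones) and from 1.34 to 14904 in heart 3 (median 127, 216 clones). The minimum of 1000 reads for a heart clone raises these ratios, and they are given as a description. Reads of a clone in the heart and in the node rose together only loosely, with Spearman's rho of 0.34, 0.47 and 0.45 across these shared clones, which differ in segment and so in reads per clone. In pairs of other numbers rho was 0.19 to 0.43.

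Seen from the node, the share of receptors found in a heart was highest among the most abundant. Of the MI node entries (a CDR3 with 1 TRBV and 1 TRBJ) with 1000 or more reads, 8 of 99 in node 1, 4 of 122 in node 2 and 15 of 248 in node 3 were clones of the heart of the same number. For hearts of other numbers, 13 of 938 comparisons of such entries were clones. From 300 to below 1000 reads 49 of 8009 entries were clones of the own-number heart and 48 of 16018 of another heart. At 2 to 19 reads the counts were 143 of 444466 and 224 of 888932. Pooled over pairs, the share was higher in each higher class of node reads for own-number and for other hearts, with 0 of 248 entries for MI node 3 and heart 2 in the highest class. At 1000 or more reads, the own-number share exceeded the others in nodes 1 and 3, and in node 2 it was equal to that of heart 1, 4 of 122 each.

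**Figure D3:**
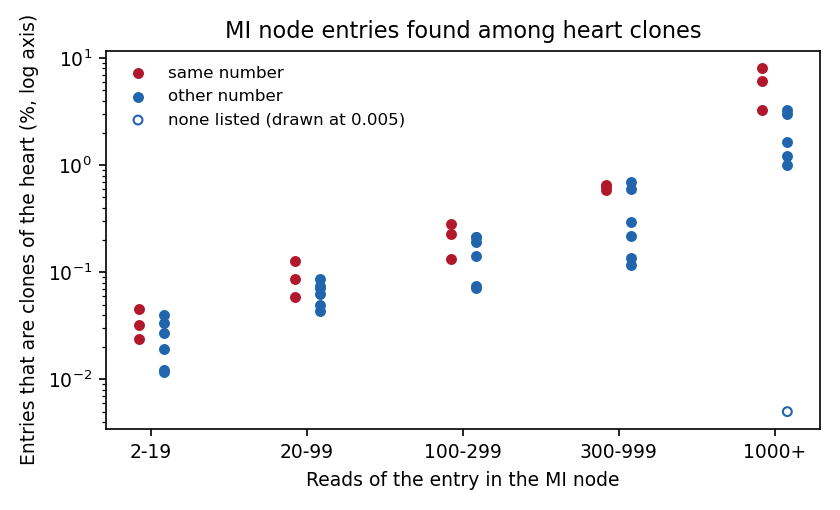
Percent of MI node entries that were clones of a heart (logarithmic vertical axis) by the reads of the entry in the node, with 1 point per pair of node and heart; red marks the heart of the same number and blue hearts of other numbers, and an open circle stands for 0 of 248 entries, drawn at 0.005. Own-number points run from 0.0240% to 0.0455% at 2 to 19 reads and from 3.28% to 8.08% at 1000 or more reads.

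Hearts shared few receptors with one another. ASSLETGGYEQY had 14304 reads in heart 1 and 10555 in heart 2, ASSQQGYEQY 21381 and 3842, and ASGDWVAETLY 2000 in heart 2 and 7242 in heart 3. These were the only CDR3s with 1000 or more reads in 2 hearts, and the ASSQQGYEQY of heart 1 used TRBV19 while that of heart 2 used TRBV5. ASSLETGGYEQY and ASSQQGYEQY were listed in all 3 MI nodes and all 4 sham nodes, and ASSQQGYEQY in 14 of the 16 nodes. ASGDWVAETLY was listed in 3 nodes. At any read count, 38 CDR3s were listed in 2 or more hearts.

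Among equal numbers of leading CDR3s, pairs of MI nodes had more in common than pairs of hearts. Of the 313 most abundant CDR3s of each library, pairs of hearts had 2, 0 and 0 in common, and pairs of MI nodes 79, 50 and 69. A heart and the node of its own number had 12, 6 and 14 in common, and a heart and a node of another number 1 to 6. Sequences 1 residue apart were 9, 18 and 12 between hearts and 299, 227 and 270 between MI nodes. Comparisons that include the same library share it, and these overlaps were not tested. The 313 CDR3s were all clones of heart 1, but a small part of the 79907 to 98792 clones of an MI node. Equal numbers thus do not correct for the 5000 and 500000 sorted cells, and the tissues cannot be compared in resemblance by these counts.

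A set of closely related receptors was nonetheless present in all 3 hearts. It was chosen after its values were seen. Of the 7 heart clones with TRBV16 and TRBJ2-7, 6 had the letters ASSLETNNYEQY, where each N stands for any residue. Heart 1 held 3 of them: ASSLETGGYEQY, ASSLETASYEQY with 10966 reads and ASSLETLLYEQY. Heart 2 held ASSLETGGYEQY. Heart 3 held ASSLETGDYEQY, with 62553 reads, and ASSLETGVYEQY, with 6549. The set held 1.19%, 0.240% and 1.35% of the reads of hearts 1, 2 and 3.

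In the nodes the same pattern was present at lower shares. It held 0.140%, 0.0393% and 0.0210% of the reads of MI nodes 1, 2 and 3, and 0.0119% to 0.0686% in the sham nodes. In the axillary nodes it held 0% to 0.0441%. Of the node clones with TRBV16 and TRBJ2-7, 14 of 903 in the MI nodes and 45 of 2370 in all 16 nodes had the pattern. The lowest heart stood above the highest of the 16 nodes, but the set was defined from heart clones of 1000 or more reads. Every heart clone shared with its own-number node held a larger share of the heart, so the choice favours this order. The share of heart 2 rested on 1 clone, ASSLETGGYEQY, which was listed in 12 of the 16 nodes. No test was made, because the pattern was picked from these hearts. TRBV16 is among the segments that are largely deleted from the T cells of this strain by endogenous mammary tumour virus superantigens, and it was used by 1.58% ± 0.480 of heart clones and 1.59% ± 0.374 of MI node clones (n = 3 each).

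Near-identical clones with other segments were also found. Among the 1302 heart clones, 48 groups had equal segments and length with neighbours 1 residue apart at most, and 106 clones belonged to them. Clones of 2 hearts made up 24 of the groups, clones of all 3 hearts 3, and clones of a single heart 21. In some groups of a single heart 1 leading clone held nearly all reads. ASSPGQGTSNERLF held 145259 of 146336 and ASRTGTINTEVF 68148 of 69525. Whether the smaller members of such groups are copying errors was not tested. Node clones were not grouped in this way, so no background for the 48 groups is given. Beside the TRBV16 set, the groups in 3 hearts were one of TRBV31 with TRBJ2-4, of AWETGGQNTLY, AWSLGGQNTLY, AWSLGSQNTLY and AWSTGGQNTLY, and one of TRBV19 with TRBJ1-1, of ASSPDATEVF, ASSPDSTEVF and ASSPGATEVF.

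Segment use was compared to ask whether the heart held another mix of receptors than its node. TRBV19 was higher and TRBV5 (Vβ1) lower in hearts by reads, while by clones TRBV13-2 (Vβ8.2) was higher and both TRBV5 and TRBV19 were lower. The direction for TRBV19 therefore turned with the unit counted. The clone differences also depended on the read minimum of the nodes, and no segment passed when every listed node CDR3 was counted. Reads and clones are given in turn.

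By reads, edgeR called 6 of 22 TRBV segments, 1 higher and 5 lower in the heart. TRBV19 took 36.7%, 32.4% and 30.5% of the hearts and 23.3%, 23.4% and 24.5% of the MI nodes. All hearts stood above all nodes (log2 fold change 0.49, SE 0.13, edgeR adjusted p 0.000918). TRBV5 took 13.6%, 9.79% and 12.8% of heart reads and 19.9%, 20.3% and 19.0% of MI node reads, with no overlap (log2 fold change -0.71, SE 0.14, adjusted p 2.52e-05). TRBV14 took 12.3%, 19.7% and 16.6% in hearts and 13.3%, 12.6% and 13.6% in nodes, which overlapped. In the sham nodes TRBV19 took 22.3% to 24.8% of reads and TRBV5 19.04% to 20.4%.

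By clones, edgeR called 5 of 22 TRBV segments, or 22.7%, of which 3 were higher and 2 lower in the heart. TRBV13-2 was used by 13.1%, 11.4% and 12.7% of heart clones and 4.76%, 4.51% and 7.82% of MI node clones (log2 fold change 1.12, SE 0.20, adjusted p 4.21e-06). TRBV13-3 (Vβ8.1) was used by 4.51% ± 0.971 and 1.53% ± 0.842 (log2 1.58, SE 0.46, adjusted p 0.00685) and TRBV29 (Vβ7) by 2.52% ± 0.659 and 0.921% ± 0.323 (log2 1.48, SE 0.45, adjusted p 0.00735; n = 3 each). In these 3 segments no heart overlapped an MI node. Sham nodes used TRBV13-2 in 6.45% to 10.9% of clones, between the MI nodes and the hearts in mean (8.71%). They used TRBV29 in 0.977% to 1.96%, below every heart, and TRBV13-3 in 1.33% to 5.72%, overlapping the hearts. For the 2 lower segments given next, sham nodes overlapped the hearts too (TRBV5 13.9% to 19.8%, TRBV19 10.8% to 18.4%). TRBV5 was used by 14.7%, 11.8% and 13.6% of heart clones and 21.9%, 21.9% and 17.2% of MI node clones (log2 -0.61, SE 0.18, adjusted p 0.00685). TRBV19 was used by 15.3%, 13.2% and 12.7% and by 20.9%, 21.1% and 15.5% (log2 -0.49, SE 0.18, adjusted p 0.0301), lower in the hearts by clones and higher by reads.

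**Figure D4:**
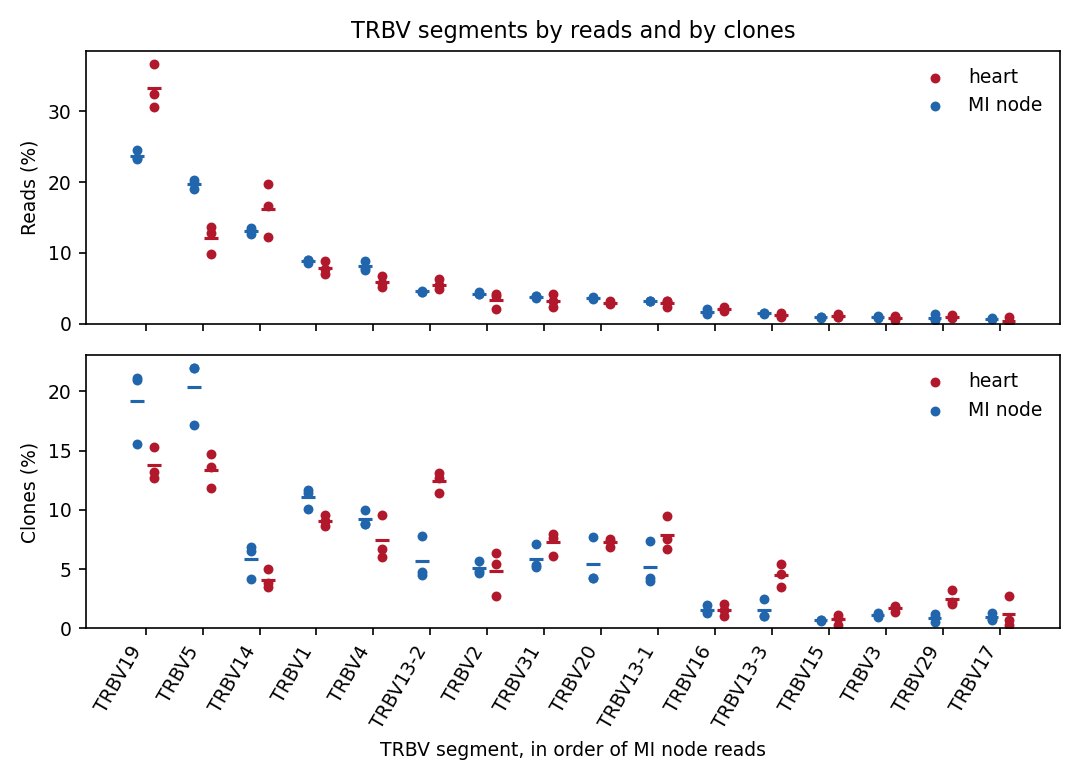
Percent of reads (upper) and of clones (lower) that used each TRBV segment, for the 16 segments with at least 0.5% of MI node reads; points are libraries (red hearts, blue MI nodes, n = 3 each) and short lines are group means. TRBV19 lies higher in hearts by reads and lower by clones, and TRBV13-2 lies higher in hearts by clones with read shares of 5.53% and 4.57%.

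These calls rested on where the node minimum was set. Counting every listed node CDR3, from 2 reads, edgeR called 0 of 22 segments (3 with an unadjusted p under 0.05). TRBV13-2 was then used by 11.2% ± 0.328 of MI node CDR3s, TRBV13-3 by 4.89% ± 0.217, TRBV5 by 13.6% ± 0.2497 and TRBV19 by 12.6% ± 0.852, beside 12.4%, 4.51%, 13.4% and 13.8% of heart clones. TRBV29 was used by 2.87%, 1.27% and 1.07% of MI node CDR3s, beside 2.52% of heart clones, and its log2 value stayed at 0.57, with an SE of 0.46 (adjusted p 0.573). With a node minimum of 100 reads TRBV13-2 fell to 0.971% of node clones, TRBV19 rose to 32.5%, and 12 segments were called. With a heart minimum of 3000 reads 0 were called (1 with an unadjusted p under 0.05), with all 7 mediastinal nodes 0 (3 unadjusted), and by edgeR without its legacy settings 0 (0 unadjusted). DESeq2 called 7, of which 2 were higher and 5 lower, and the fit with the sample number as a block 5. Leaving out heart 2, heart 3, MI node 1 or MI node 2 left 3, 1, 2 and 2 calls, and leaving out MI node 3 gave 10.

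Reads per clone differed between segments in both tissues. The median TRBV14 clone had 5.07 ± 1.95 times the reads of the median clone of its library in hearts and 3.54 ± 1.30 times in MI nodes. For TRBV19 these ratios were 3.64 ± 0.476 and 1.69 ± 0.403, and for TRBV5 1.53 and 1.26. At the other end stood TRBV13-3 with 0.453 and 0.571, TRBV13-1 (Vβ8.3) with 0.533 and 0.620, and TRBV13-2 with 0.576 and 0.609 (n = 3 each). The median clone had 4248 to 4631 reads in hearts, above a minimum of 1000, and 45 to 59 reads in MI nodes, above a minimum of 20. TRBV14 and TRBV19 together made up 17.9% ± 1.53 of heart clones but 49.4% ± 2.53 of heart reads. In the MI nodes they made up 25.1% ± 4.61 of clones and 36.9% ± 1.04 of reads. Whether reads per clone reflect primers, transcript level or clone size was not tested.

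**Figure D5:**
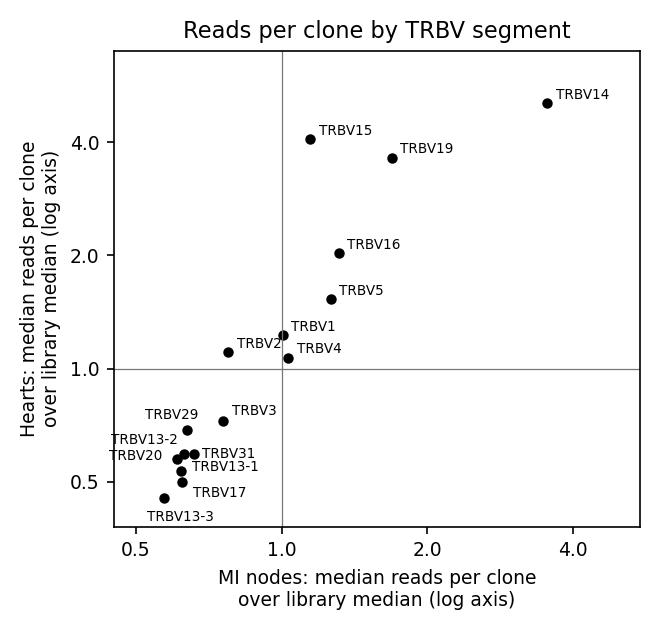
Median reads per clone of each TRBV segment over the median of all clones of the library, mean of 3 MI nodes (horizontal) and of 3 hearts (vertical), both on logarithmic axes; grey lines mark 1. Among the 16 segments shown TRBV14 lies highest in both tissues (5.07 in hearts, 3.54 in MI nodes) and TRBV13-3 lowest (0.453 and 0.571).

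The TRBV13 family, which encodes the Vβ8 chains, was used by 23.3% to 27.6% of heart clones and 9.53% to 17.7% of MI node clones. With every listed node CDR3 it was 24.6% ± 0.192 in the MI nodes, beside 24.8% ± 2.45 of heart clones. By reads it took 9.67% ± 1.44 and 9.23% ± 0.0460. The median log2 fold change over all 22 segments was 0.13 in the clone fit. Segments favoured by invariant NKT cells, which share the CD4 gate in part, are TRBV13-1, TRBV13-2, TRBV13-3, TRBV29 and TRBV1. They were used by 34.2% to 40.0% of heart clones and 21.8% to 28.7% of MI node clones, without overlap. They took 18.5% ± 1.33 of heart reads and 18.9% ± 0.633 of MI node reads. Within this list TRBV1 was lower in hearts by clones (9.09% against 11.1%), and TRBV13-1 overlapped between the tissues. Counting every listed node CDR3, the TRBV13 family, TRBV29 and TRBV1 were used by 24.6%, 1.74% and 8.43% in the MI nodes. The heart clones stood at 24.8%, 2.52% and 9.09%. The gap between the tissues for this list thus depended on the node minimum, and the list as a whole was not recounted. Segments favoured by MAIT cells (TRBV19, TRBV13-2 and TRBV13-3) were used by 30.7% ± 1.41 of heart clones and 26.4% ± 0.480 of MI node clones. They took 40.0% and 29.8% of reads, with TRBV19 making up most of both. By clones TRBV19 itself was lower in hearts (13.8% against 19.2%). With every listed node CDR3, TRBV19, TRBV13-2 and TRBV13-3 were used by 12.6%, 11.2% and 4.89% in the MI nodes. Heart clones used them at 13.8%, 12.4% and 4.51%. These segments are used by conventional T cells too, and no alpha chain was read. The segments that superantigens delete in this strain (TRBV12-1, TRBV12-2, TRBV15, TRBV16 and TRBV26) were used by 2.49% ± 0.645 of heart clones and 2.51% ± 0.392 of MI node clones.

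No TRBJ segment passed by clones. EdgeR called 0 of 11 (0%), with 2 at an unadjusted p under 0.05. DESeq2 also called 0. TRBJ2-1 had the smallest p, with 10.9%, 15.7% and 11.8% of heart clones and 10.4%, 10.2% and 10.2% of MI node clones (log2 0.33, SE 0.13, adjusted p 0.163). Heart 2 stood above the other hearts, and without it the log2 fold change was 0.16 (adjusted p 0.757). By reads TRBJ2-1 was 0.62 higher on the log2 scale and the only one called (adjusted p 0.0278). TRBJ1-1 was lower by clones at 9.57% ± 0.807 against 11.8% ± 0.617 (adjusted p 0.170), and TRBJ1-4 and TRBJ2-2 had adjusted p of 0.369 and 0.592. The TRBJ1 cluster, the upstream set of joining segments, was used by 35.3% ± 1.42 of heart clones and 39.1% ± 0.478 of MI node clones.

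Of 202 V-J pairs with at least 10 clones in the 6 libraries, edgeR called 3 (1.49%). TRBV5 with TRBJ1-4 was lower in hearts, at 0.958%, 0.911% and 0.545% of clones against 2.35%, 2.53% and 1.85% (log2 -1.54, SE 0.43, adjusted p 0.0376). TRBV13-3 with TRBJ2-7 was higher, at 3, 5 and 2 heart clones or 0.820% ± 0.406 against 0.129% ± 0.0869 (log2 2.60, SE 0.75), and TRBV13-2 with TRBJ2-7 at 1.59% ± 0.557 against 0.571% ± 0.251 (log2 1.54, SE 0.45), each with an adjusted p of 0.0376 (n = 3). All 3 calls ended when the sample number was kept as a block (adjusted p 0.0524 for each), with every listed node CDR3 counted, and when heart 2, heart 3, MI node 1 or MI node 2 was left out. Without MI node 3, 16 pairs were called. The balance of directions also moved: 2 calls were higher and 1 lower here, against 2 and 50 by reads, 0 and 5 with TMM factors, and 1 and 7 with DESeq2. The median log2 fold change over all pairs was -0.15 here, -0.64 by reads, -0.68 with TMM factors and -0.27 with DESeq2.

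No feature of the CDR3 loop passed between heart and node clones. Mean length was 12.3, 12.1 and 12.0 residues in the hearts and 12.2, 12.2 and 12.1 in the MI nodes (exact two-sided permutation p = 0.60). CDR3s of 10 or fewer residues made up 10.5%, 12.8% and 16% of heart clones and 10.8%, 10.9% and 11.9% of MI node clones (exact permutation p = 0.40). Those of 14 or more residues made up 17.6%, 13.0% and 12.5% and 16.3%, 16.2% and 15.5% (exact permutation p = 0.40). In both measures heart 1 lay on the other side of the nodes from heart 3.

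Motifs read from the germline D segments had higher values in hearts, without passing. At least 1 of the motifs GTG, TGG, GQG, DRG, GLG and DWG was in 26.2%, 24.6% and 26.4% of heart clones and 23.4%, 22.8% and 23.2% of MI node clones, a difference of 2.56 percentage points with no overlap (exact permutation p = 0.10, adjusted over 8 features 0.40). Glycine made up 23.5%, 23.2% and 25.3% of the residues in the CDR3 centre of the hearts and 22.6%, 22.5% and 22.9% in the nodes, also without overlap (exact permutation p = 0.10, adjusted 0.40). With 3 against 3, no exact permutation test could go below p = 0.10. Weighted by reads, the differences were -0.05 and -0.57 points, of the opposite sign.

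The other features overlapped between the tissues or had a p of 0.20 or more. Net charge of the CDR3 centre was -0.131, -0.0706 and -0.122 in hearts and -0.0560, -0.0487 and -0.0802 in MI nodes (exact permutation p = 0.20, adjusted 0.533). A pair of hydrophobic residues at CDR3 positions 6 and 7, counted with the leading cysteine as position 1, a feature that has been tied to self-reactivity, was in 0.639%, 2.28% and 1.82% of heart clones and 2.27%, 2.16% and 2.40% of MI node clones (exact permutation p = 0.30, adjusted 0.533). Hydropathy of the centre differed by 0.01 units (p = 0.60 by exact permutation).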

How the data were processed

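Per the labels' protocols, CD4+ TCRβ+ cells were sorted, and a provider amplified beta chain transcripts from total RNA by multiplex PCR with V primers and sequenced the pooled libraries on an Illumina HiSeq. Each deposited table lists read counts, not normalised, for every CDR3 with its TRBV and TRBJ segment. The lowest count was 2; the sources used here do not give the aligner, error correction or molecular identifiers. PCR reads are not independent molecules, so Wilson 95% intervals cover counting error only.

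Members, lists and tests were chosen with earlier results of these data known. Reads were summed per CDR3 (Python 3.11.15, pandas 2.3.3, SciPy 1.17.1). Clones (hearts 1000 or more reads, nodes 20 or more) were counted per segment and compared in edgeR 4.0.16 by its quasi-likelihood test (robust, legacy settings, clone total as offset, Benjamini-Hochberg at 0.05) on 3 hearts and 3 MI nodes. The fit was tested on simulated counts. Evenness, features and sharing were tested by exact permutation. DESeq2 1.42.0, TMM factors, other minima, merged near-identical CDR3s, reads in place of clones, all 7 mediastinal nodes, a replicate block and each library left out were alternatives, and the sharing of MI nodes without the own-number pair was added after seeing the data.

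Named segments were those with an adjusted p under 0.05, otherwise the 4 with the smallest p; named V-J pairs those past the threshold; named CDR3s the leading 10 of each heart, 3 of each MI node, those of 2 hearts, the 5 of each heart highest in its own-number node and up to 10 in all 3 MI nodes; of these a part is described. CDR3s of 15 or more residues are not printed. Same-numbered hearts and nodes were also compared by deviations of log2 read shares from the group mean over 2607 CDR3s, without a test. These correlated at 0.195, 0.167 and 0.221 for the same number and from -0.145 to -0.0414 for other numbers. Deviations from a mean of 3 libraries cancel out, so negative values for other numbers follow in part from positive ones for the same number. The labels do not state the pairing.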

Additional observations from a re-analysis of the deposited data

How the results depend on the processing

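Clone calls followed the settings. TRBV segments called were 5, and 0 with a heart minimum of 3000 reads, 0 with a node minimum of 2 reads, 12 with a node minimum of 100 reads, 0 with all 7 mediastinal nodes, 0 without legacy settings and 1 to 10 with a library left out. TRBJ calls rose from 0 to 6 with a node minimum of 100 reads and to 1 by reads. V-J pairs called were 3, and 11 and 0 with heart minima of 100 and 3000 reads, 0 and 82 with node minima of 2 and 100 reads, 52 by reads, 0 with all 7 nodes, 5 with TMM factors, 8 with DESeq2, 0 without legacy settings, 0 without the filter on pairs and 0 to 16 with a library left out. With the replicate block V-J calls were 0 and TRBV calls 5, and the block changed no other call. A higher minimum leaves fewer clones to count. TRBV and V-J calls fell with a heart minimum of 3000 reads and rose with a node minimum of 100 reads. Why they moved was not tested.

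Log2 fold changes that turned sign were those of TRBV13-3 (-0.87 with a heart minimum of 3000 reads, -0.080 with a node minimum of 2 reads, -0.25 by reads), TRBV19 (0.12, 0.11 and 0.49 under the same settings), TRBJ1-4 (0.13 by reads), and, with a heart minimum of 3000 reads, TRBV13-3 with TRBJ2-7 (-0.094) and TRBV13-2 with TRBJ2-7 (-0.66). Weighted by reads, 5 of 8 features turned sign: long CDR3s (1.46 points), charge (0.00102), the hydrophobic pair (0.0829), glycine (-0.57) and D motifs (-0.0452). Hydropathy ran from -0.00568 to 0.0277 with a library left out. Against all 7 mediastinal nodes the 3 evenness measures passed, at -2.22 and -2.31 log10 units and 2.94 points. The order of the groups in the first 2 was fixed in advance by cell number. Counted over settings, 126 of 207 fold changes of named segments and pairs kept direction and side of the threshold, and 67 no longer passed. Of 220 values of the main comparisons (numbers of calls, evenness, features and sharing, 2 of them without a test), 181 were labelled unchanged. Numbers of calls have no direction of their own. Exact permutation of 3 hearts against 3 MI nodes could not go below p = 0.1, nor that of the pairings below 0.167. Evenness, feature and pairing values tested in these ways could not pass at 0.05, so their side of the threshold was fixed in advance. The count of 181 therefore does not measure how robust they are. Heart libraries of 313 to 550 clones limit the precision of every clone share.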
